A study of Mus musculus with 16 samples.

Results

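Expression, DNA methylation and histone marks of antioxidant enzymes and of the thioredoxin system were examined in pancreatic β cells of old and young mice. The group comprises 9 genes, Sod1, Sod2, Cat, Gpx1, Gpx3, Gpx4, Txnip, Txn1 and Prdx4, which were taken by name from the 22869 genes of the RNA count table. The study asked how the transcripts and chromatin of β cells change with age. RNA came from 3 pools of old mice, aged 15, 16 and 17 months, and 2 pools of young mice aged 4 to 6 weeks, each pool holding 5 to 10 mice according to the design text, which names a further young replica not analysed here. These mice were MIP-GFP/Bl6, in which a green fluorescent protein under the insulin promoter marks β cells, and live β cells were sorted by flow cytometry. Histone marks and CpG methylation came from sorted β cells of C57Bl6 mice, 16 to 18 months old per the labels, against mice of 4 to 6 weeks. For the old bisulfite pool the design text gives 18 to 22 months in place of the labelled age, and for the young bisulfite pool 10 mice. H3K4me1, a mark of enhancers, H3K27me3, the mark of Polycomb repression, and methylation had 1 sample per age, and H3K27ac, a mark of active promoters and enhancers, had 1 young library.

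Superoxide formed by respiration is turned into hydrogen peroxide by superoxide dismutases, and the peroxide is then removed by catalase, by glutathione peroxidases and by peroxiredoxins, which draw their electrons from glutathione or thioredoxin. Txnip, the thioredoxin-interacting protein, binds reduced thioredoxin and is one of the transcripts that glucose induces most in islets, through the transcription factor ChREBP, the product of Mlxipl. Rodent β cells are known for low catalase and low Gpx1 compared with liver, and oxidative protein folding of proinsulin in the endoplasmic reticulum is a further source of peroxide in these cells.

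The results below turn on the start of Gpx3, and to a lesser degree on those of Cat and Txnip, so the 250 bases before each start are shown in the direction of transcription, from RefSeq (GRCm38.p6). The stretches are chr11:54902604-54902853 on the plus strand for Gpx3, chr2:103485154-103485403 on the minus strand for Cat, and chr3:96557707-96557956 on the plus strand for Txnip. Capitals mark every CpG in Gpx3 (11) and Cat (9), and in Txnip the single match to the carbohydrate response element, the site known to bind ChREBP.
Gpx3: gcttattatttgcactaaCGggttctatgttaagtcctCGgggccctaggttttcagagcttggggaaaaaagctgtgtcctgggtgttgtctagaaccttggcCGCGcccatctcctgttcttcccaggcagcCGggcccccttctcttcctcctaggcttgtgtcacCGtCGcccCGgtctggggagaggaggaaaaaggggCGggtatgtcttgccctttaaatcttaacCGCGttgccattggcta
Cat: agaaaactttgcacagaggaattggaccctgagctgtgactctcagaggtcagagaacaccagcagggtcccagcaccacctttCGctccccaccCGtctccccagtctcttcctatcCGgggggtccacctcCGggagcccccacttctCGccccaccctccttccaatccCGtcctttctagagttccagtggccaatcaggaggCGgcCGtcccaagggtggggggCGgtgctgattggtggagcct
Txnip: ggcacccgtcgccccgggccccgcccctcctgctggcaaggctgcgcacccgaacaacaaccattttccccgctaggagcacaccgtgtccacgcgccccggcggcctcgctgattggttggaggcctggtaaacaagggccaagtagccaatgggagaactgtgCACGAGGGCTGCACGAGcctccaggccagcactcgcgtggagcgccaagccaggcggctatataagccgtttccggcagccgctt
The methylation tables use the older build mm9, and every CpG of the 300 bases around these starts (13 in Gpx3, 11 in Cat and 24 in Txnip) was found there with the same spacing, which paired the tables with the sequences without converting coordinates.

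Old RNA libraries held 23559908 to 33562822 gene counts, and the young ones 6377619 (the shallower) and 12892123 (the deeper). Levels below are counts scaled to the gene counts of the library (CPM), and fold changes are log2 values of old over young with a standard error (SE) from edgeR's quasi-likelihood test, two-sided, with Benjamini-Hochberg adjustment over 15544 genes and a threshold of 0.05. The 10 β cell markers summed to 330328 to 389336 CPM in old and 275324 to 332566 CPM in young libraries, with a median log2 fold change of 0.90, and 3 of them rose and none fell by edgeR. Ins1 alone took 22.0 to 28.3% of the counts in the 5 libraries. Transcripts of other cells were lower in old libraries: 7 endothelial genes summed to 38.5 to 70.9 CPM in old and 449 to 772 CPM in young libraries, 8 acinar genes to 71.3 to 114 CPM in old and 1390 to 2115 CPM in young, and 7 stellate and fibroblast genes to 5.45 to 8.92 CPM in old and 238 to 3482 CPM in young. Further, 6 dividing cell genes summed to 4.84 to 6.49 CPM in old and 430 to 470 CPM in young libraries, and 10 immediate early and stress genes to 994 to 3587 CPM in old and 5432 to 6528 CPM in young. The 6 alpha cell genes summed to 908 to 1810 CPM in old and 2129 to 33986 CPM in young libraries, with the high young value in the deeper library. That library also held the high young values of the stellate list, the 5 delta and PP cell genes (233 to 429 CPM in old and 3363 to 10359 CPM in young) and the 7 immune genes (19.7 to 34.2 CPM in old and 175 to 281 CPM in young). The acinar genes Amy2a5 and Ptf1a had 0 counts in every old library. Xist, the RNA of the inactive X chromosome, averaged 2.77 ± 0.354 CPM in old and 475 ± 221 CPM in young libraries (SD, n = 3 old and 2 young), and 4 Y-linked genes summed to 173 to 247 CPM in old and 64.8 to 102.2 CPM in young. The sex make-up of the pools cannot be told apart from age in any RNA result here. In such bulk samples, fewer cells of a type and less RNA per cell cannot be told apart either.

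Of the 9 genes, 1 passed the test, Gpx3, which fell, while 7.93% of all genes fell and 3.17% rose. An unadjusted p under 0.05 was found for 4 of the 9, against 29.9% of all genes. The groups did not overlap for 5 of the 9, against 46.8% of all genes, with Sod2 and Gpx1 higher in all old libraries (18.7% of all genes were) and Cat, Gpx3 and Txnip lower in all old libraries (28.1% of all genes were). These shares are near those of the whole table. Across the 9 genes the median log2 fold change was -0.27, against -0.05 over all genes tested. Scaling with RLE size factors moved that median of all genes to -0.17, and under it Sod1 and Gpx4 changed the sign of their small differences.

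Among the superoxide dismutases, Sod1 encodes the copper-zinc enzyme of the cytosol. Sod1 stood at 132, 118 and 117 CPM in old libraries, against 127 and 134 CPM in young libraries. The groups overlapped, with a log2 fold change of 0.06 (SE 0.22, adjusted p = 0.885), and 2 SE either side span -0.38 to 0.50. Sod2, the manganese enzyme of mitochondria, stood at 57.3, 58.1 and 57.2 CPM in old libraries, against 31.4 and 38.1 CPM in young libraries. All old libraries were above both young ones and nearly equal to each other. The log2 fold change of 0.89 (SE 0.29) missed the threshold with an adjusted p of 0.087, and passed with DESeq2, where 7.17% of all genes rose. Without the deeper young library the log2 fold change was 1.03.

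Catalase, encoded by Cat, splits hydrogen peroxide in peroxisomes. Its RNA stood at 10.2, 6.73 and 3.95 CPM in old libraries, against 20.1 and 32.5 CPM in young libraries. Every old library was below both young ones, yet the first old library was well above the third and the young pair was also spread. The log2 fold change was -1.78 (SE 0.54, adjusted p = 0.071), short of the threshold. The fall passed with DESeq2, where 15.7% of all genes fell. Without the shallower young library the log2 fold change was -2.07.

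Gpx1 encodes the abundant cytosolic glutathione peroxidase. It stood at 202, 147 and 128 CPM in old libraries, against 116 and 77.6 CPM in young libraries. The groups did not overlap, but the lowest old and the highest young library lay close together. The log2 fold change of 0.87 (SE 0.29, adjusted p = 0.089) missed the threshold. It passed with no filter on low counts, where 3.94% of all genes rose. Leaving out the shallower young library raised the log2 fold change, and leaving out the deeper one lowered it to 0.61.

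Gpx3 encodes the secreted glutathione peroxidase, a selenoprotein of extracellular fluid and plasma. It stood at 169, 165 and 241 CPM in old libraries, against 1144 and 1578 CPM in young libraries. No old library came near either young one. Mean levels were 191 ± 42.7 CPM in old and 1361 ± 307 CPM in young libraries (SD), a log2 fold change of -2.66 with an SE of 0.29 and an adjusted p of 0.0051. The fall passed the test under each alternative that kept both young libraries. Without the deeper young library the log2 fold change was -2.41. The shallower young library, which then remained, also held more non-β transcripts than any old one, with 238 CPM of the stellate and 449 CPM of the endothelial genes. Markers of acinar, endothelial, stellate, delta and immune cells were lower in old libraries as well, as was Xist, while Y-linked transcripts were higher, and their part in the fall of Gpx3 was not tested. Gpx4, which reduces lipid hydroperoxides in membranes, was near the lower limit of the data at 2.06, 2.62 and 1.95 CPM in old libraries, against 2.51 and 2.17 CPM in young libraries. These levels overlapped, and the SE of 1.03 around a log2 fold change of 0.07 leaves a wide range. Processed copies of Gpx4 exist elsewhere in the mouse genome, so reads that match more than 1 place may be missing from its count, which was not tested.

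**Figure D1:**
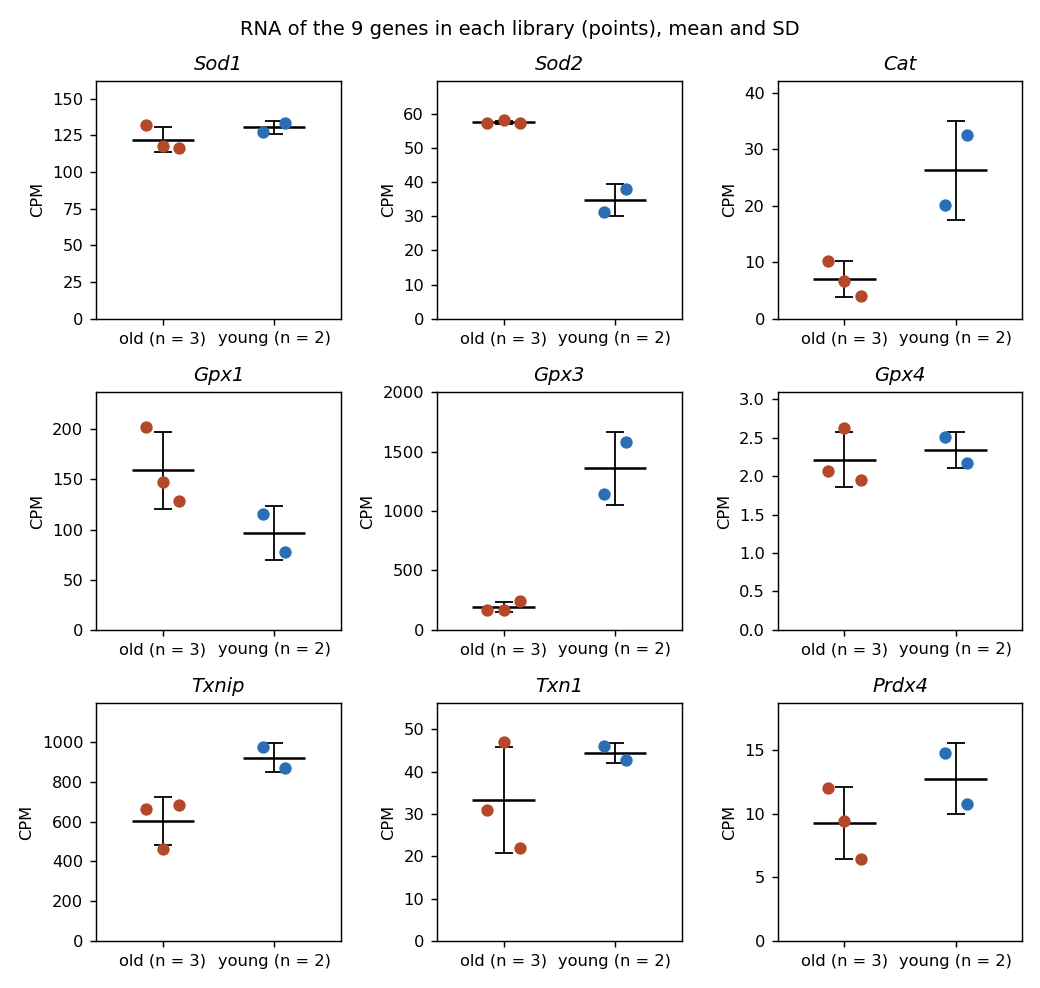
RNA level in CPM (vertical axes, linear and starting at 0, with a scale of their own in each panel) of the 9 genes in each old library (left, n = 3) and each young library (right, n = 2). Points are libraries, lines the mean and bars the SD, and the Gpx3 panel shows old and young libraries far apart, with 165 to 241 CPM in old and 1144 to 1578 CPM in young libraries.

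Txnip was among the most abundant of the 9 transcripts, at 665, 463 and 681 CPM in old libraries, against 974 and 869 CPM in young libraries. All old libraries were below both young ones. The log2 fold change of -0.45 (SE 0.26, adjusted p = 0.282) did not pass. An antisense gene, Gm15441, covers the whole of Txnip, stood at 134, 78.3 and 162 CPM in old and 186 and 221 CPM in young libraries, and was lowest in the second old library, as was Txnip. The sources used here do not give a strand setting, so reads of the pair cannot be told apart. Txn1, the cytosolic thioredoxin that Txnip binds, stood at 30.9, 46.9 and 22.0 CPM in old libraries, against 46.1 and 42.7 CPM in young libraries. The old libraries lay on both sides of the young pair, and the log2 fold change was -0.27 (SE 0.38, adjusted p = 0.671). Prdx4, the peroxiredoxin of the endoplasmic reticulum and an X-linked gene, stood at 12.04, 9.42 and 6.41 CPM in old libraries, against 14.7 and 10.8 CPM in young libraries. The groups overlapped, with a log2 fold change of -0.32 (SE 0.56, adjusted p = 0.748).

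**Figure D2:**
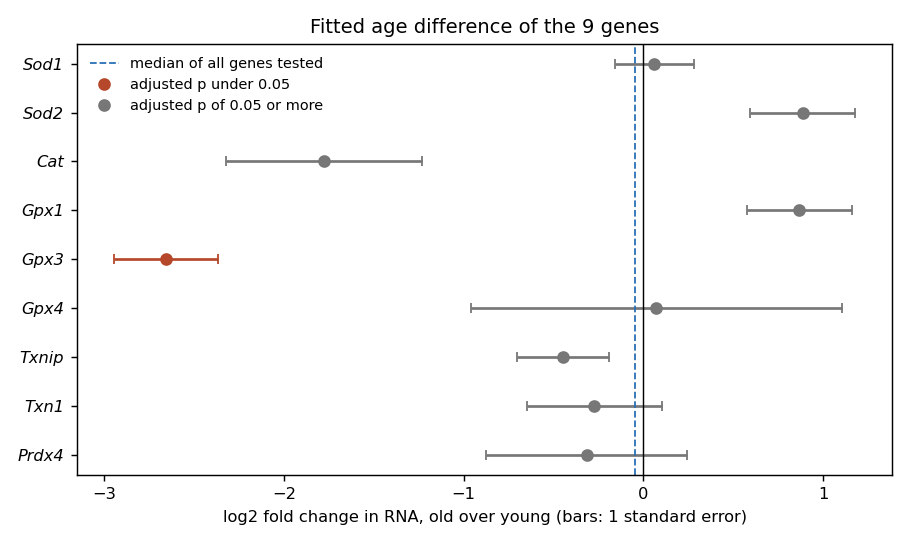
Fitted log2 fold change of RNA, old over young (horizontal axis), with 1 SE either side, for the 9 genes. Gpx3 at -2.66 is the only one past the adjusted p threshold, and the dashed line marks the median of all genes tested at -0.05.

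Levels of different genes were set against each other only per transcript length, within single columns of the deposited table named for FPKM. In the first old library Txnip had the highest deposited signal at 357, then Sod1 at 307, Gpx1 at 291 and Gpx3 at 167. In the second old library Sod1 came first at 334 and Txnip second at 303, then Gpx1 at 258 and Gpx3 at 198, so the order of Txnip and Sod1 differed between the old libraries. In the deeper young library Gpx3 came first at 903, followed by Txnip at 271, Sod1 at 180 and Gpx1 at 64.7. Cat was eighth of the 9 in the first old library, with a signal of 5.99, ninth in the second, with 4.84, and sixth in the deeper young library, with 11.1. With 1 young column used, the order in young cells has no replicate.

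By the distance between centred log2 CPM over the 5 libraries, the genes most like Gpx3 were Nnat and Jup, with root mean square differences of 0.24 for both among 6642 genes. Cat was nearest to Igfbp3 (0.10) and Atad2 (0.11). For Sod2 the nearest were Golga1 and Lgals3bp, for Gpx1 Scarb2 and Erlec1, for Txnip Tsc22d2 and Ubn1, and for Sod1 Aak1 and Rplp1. Gpx4 was nearest to Rab4a and Rad9, Txn1 to Epn2 and Stim2, and Prdx4 to Nup155 and Secisbp2l. These genes were chosen for their likeness and carry no test of it.

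Around the 9 genes, 105 further genes of antioxidant and redox lists were tested, of which 5 rose and 8 fell, close to the 3.17% that rose and 7.93% that fell over all genes. Their median log2 fold change was 0.22. With RLE size factors 1 rose and 8 fell, where 2.42% of all genes rose and 8.80% fell. The total called was 2 or 3 without any 1 of the old libraries, where 2.22 to 2.97% of all genes were called. It was 30 with DESeq2, where 22.9% of all genes were called. Txnrd1, the cytosolic reductase that recharges thioredoxin, rose to 84.0, 90.2 and 82.0 CPM in old libraries, against 29.6 and 42.2 CPM in young libraries, with a log2 fold change of 1.41 (SE 0.29, adjusted p = 0.025). Of the 13 tested genes of oxidative folding in the endoplasmic reticulum, Prdx4 among them, 3 rose and none fell at the threshold by edgeR, the oxidase Ero1lb (1.11) and the disulfide isomerases Pdia3 (1.10) and Pdia4 (1.16 on the log2 scale). With RLE size factors none of the 13 rose, where 2.42% of all genes did. Without any 1 of the old libraries none of the 13 rose either, where 0.27 to 0.63% of all genes did. Of the 10 β cell markers given above 8 had log2 fold changes above 0 and 2 below, and their summed levels overlapped between the ages. Their part in the rises of these genes and of Txnrd1 was not tested. Ero1lb averaged 1732 ± 452 CPM in old and 886 ± 201 CPM in young libraries (SD). Sepsecs, which makes selenocysteinyl tRNA, rose by 1.45 on the log2 scale (adjusted p = 0.048).

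None of the 7 peroxiredoxin and sulfiredoxin genes passed by edgeR, 6 having log2 fold changes above 0, with 1 passing by DESeq2, where 7.17% of all genes rose. The 1 with an unadjusted p under 0.05 was Prdx6, a cytosolic peroxidase of phospholipid peroxides, at 113, 115 and 107 CPM in old libraries and 59.1 and 84.6 CPM in young libraries. Among 26 genes around NRF2, the transcription factor of the antioxidant response, only Txnrd1 passed by edgeR and it rose, while NRF2 itself, the product of Nfe2l2, had 57.0, 60.1 and 40.1 CPM in old libraries, against 41.4 and 84.1 CPM in young libraries. Of 22 genes of glutathione synthesis, recycling and conjugation 3 fell and none rose by edgeR. Among 19 selenoproteins and selenocysteine factors 2 rose and 2 fell, counting Txnrd1 and Gpx3, and among 9 tested producers of reactive oxygen 3 fell and none rose. None of the 4 methionine sulfoxide reductases passed by edgeR, and 1 had an unadjusted p under 0.05. Over all genes tested by edgeR 3.17% rose, 7.93% fell and 29.9% had an unadjusted p under 0.05. The median log2 fold change of all genes was -0.05, and no list was tested as a set.

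The other tested superoxide dismutase, Sod3, is the extracellular one and fell to 0.937, 0.745 and 0.170 CPM in old libraries, against 8.0 and 17.2 CPM in young libraries. Its log2 fold change was -4.21 (SE 0.98, adjusted p = 0.034). The selenoprotein Sepn1 fell by 2.01, averaging 13.9 ± 2.76 CPM in old and 61.9 ± 11.99 CPM in young libraries. Gstk1, a glutathione transferase of mitochondria and peroxisomes, fell by 4.54 on the log2 scale (adjusted p = 0.015).

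Several of the genes that fell were almost absent from old libraries. Xdh, which makes superoxide and peroxide while oxidizing xanthine, averaged 0.765 ± 0.499 CPM in old and 43.7 ± 32.0 CPM in young libraries. Ggt1, which splits glutathione outside the cell, had 0 counts in the old libraries and 133 in the young ones, so that it was at least 193-fold lower in old against a bound of 3 counts over the group. Gsta4, a glutathione transferase for lipid aldehydes, had 1 count in old against 81 in young libraries, a depth-scaled ratio of young over old of 352 (95% counting interval 61.5 to 14082). Without the deeper young library Ggt1 and Gsta4 had too few counts to be tested. Duox2, which releases peroxide, had 3 counts in old against 310 in young, a ratio of young over old of 449 (152 to 2191), and Nos2, the inducible nitric oxide synthase, 2 against 216, a ratio of 470 (128 to 3903). These genes were lower in old libraries, as were the non-β markers above, whose part was not tested. Not all of them shared the order of those markers between the young libraries. For Xdh the log2 fold change was -4.60 without the shallower young library and -6.25 without the deeper one. In the same order it was -7.31 and -9.55 for Duox2, and -8.76 and -7.30 for Nos2. The 6 duct cell genes, not listed above, summed to 86.2 to 107 CPM in old and 287 to 366 CPM in young libraries. Their high young value was in the shallower library. Of 7 genes of the glucose response, Txnip among them, none passed by edgeR, and 2 fell by DESeq2, as did 15.7% of all genes. An unadjusted p under 0.05 was found for 3, as it was for 29.9% of all genes. Among these 3, Mlxipl, which encodes ChREBP, had a log2 fold change of -0.76 (adjusted p = 0.135). Arrdc4, the arrestin most like Txnip and induced with it, had -1.34 (adjusted p = 0.107), and the remaining gene is not named here.

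Methylation was summed over CpGs with at least 5 reads in both ages within 1000 bases of each start, and compared by Fisher's exact test on the calls with adjustment over 21107 promoters, where a call also needed a difference of at least 10 percentage points. The test compares the reads of 2 libraries and not the ages, and neighbouring CpGs share reads. None of the 9 promoters was called, while 7.91% of all promoters were, 4.26% lower and 3.65% higher in old. All had low methylation in both ages, at 5.04% in old and 3.62% in young for Sod1, 7.51% in old and 8.08% in young for Sod2, and 10.1% in old and 13.01% in young for Cat. The glutathione peroxidases stood at 11.8% in old and 9.94% in young for Gpx1, 14.6% in old and 22.0% in young for Gpx3, and 7.14% in old and 3.41% in young for Gpx4. Txnip had 8.31% in old and 2.46% in young, Txn1 7.40% in old and 6.00% in young, and Prdx4 9.66% in old and 8.33% in young.

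**Figure D3:**
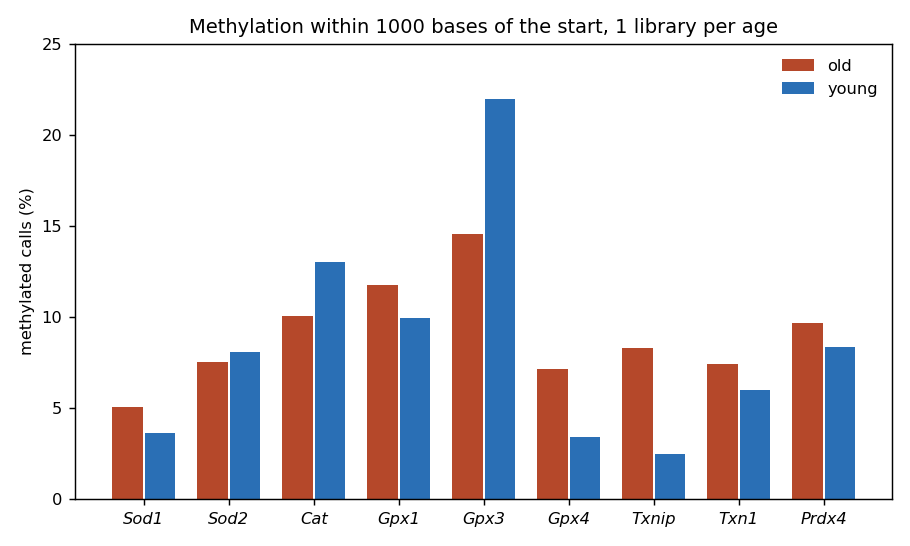
Share of methylated calls in percent (vertical axis) within 1000 bases of the start of each gene, with 1 library per age, old left of young in each pair. Gpx3 has the widest gap, with 14.6% in old and 22.0% in young, and no pair reaches a difference of 10 points.

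Gpx3 had the largest promoter difference of the 9, -7.41 points, old minus young. Giving each CpG equal weight made it -12.67 points, which was called. Of its 53 CpGs, 15 were lower in old by at least 20 points and 2 higher by as much. Of those 15, 6 lay in the printed sequence and 9 elsewhere in the window. At the CpGs 116, 81, 78, 73 and 46 bases upstream, picked after their values were seen, 3 of 64 calls were methylated in old (4.69%, exact 95% interval 0.977 to 13.1) and 44 of 83 in young (53.0%, 41.7 to 64.1). At the pair farthest upstream, 232 and 212 bases before the start, the share was 13.8% in old and 8.0% in young, and at the pair 9 and 19 bases after the start 0 of 107 calls in old, which allows up to 3.39%, and 3.30% in young. The pairs between these groups were lower in old as well, with 2 of 22 calls (9.09%) in old and 9 of 39 (23.1%) in young 146 and 144 bases upstream, and 0 of 57 in old and 7 of 59 (11.9%) in young 17 and 15 bases upstream.

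In Cat the 9 CpGs printed above gave 12 of 199 methylated calls in old (6.03%, 3.15 to 10.3) and 15 of 39 in young (38.5%, 23.4 to 55.4). The young library covered each of them with only 1 to 7 reads, and most fell under the minimum of the test. Txnip kept its start nearly free of methylation, with 4.17% in old and 1.29% in young over the 24 CpGs of the 300 bases around it. Of the 2 CpGs within the response element, 2 of 72 calls were methylated in old and 0 of 108 in young. Over the wider promoter window 12 of its 67 CpGs were higher in old by at least 20 points and 3 lower by as much. Outside the 300 bases lay 3 CpGs 189 to 204 bases downstream with 20 of 34 methylated calls in old (58.8%) and 0 of 49 in young, chosen after their values were seen.

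**Figure D4:**
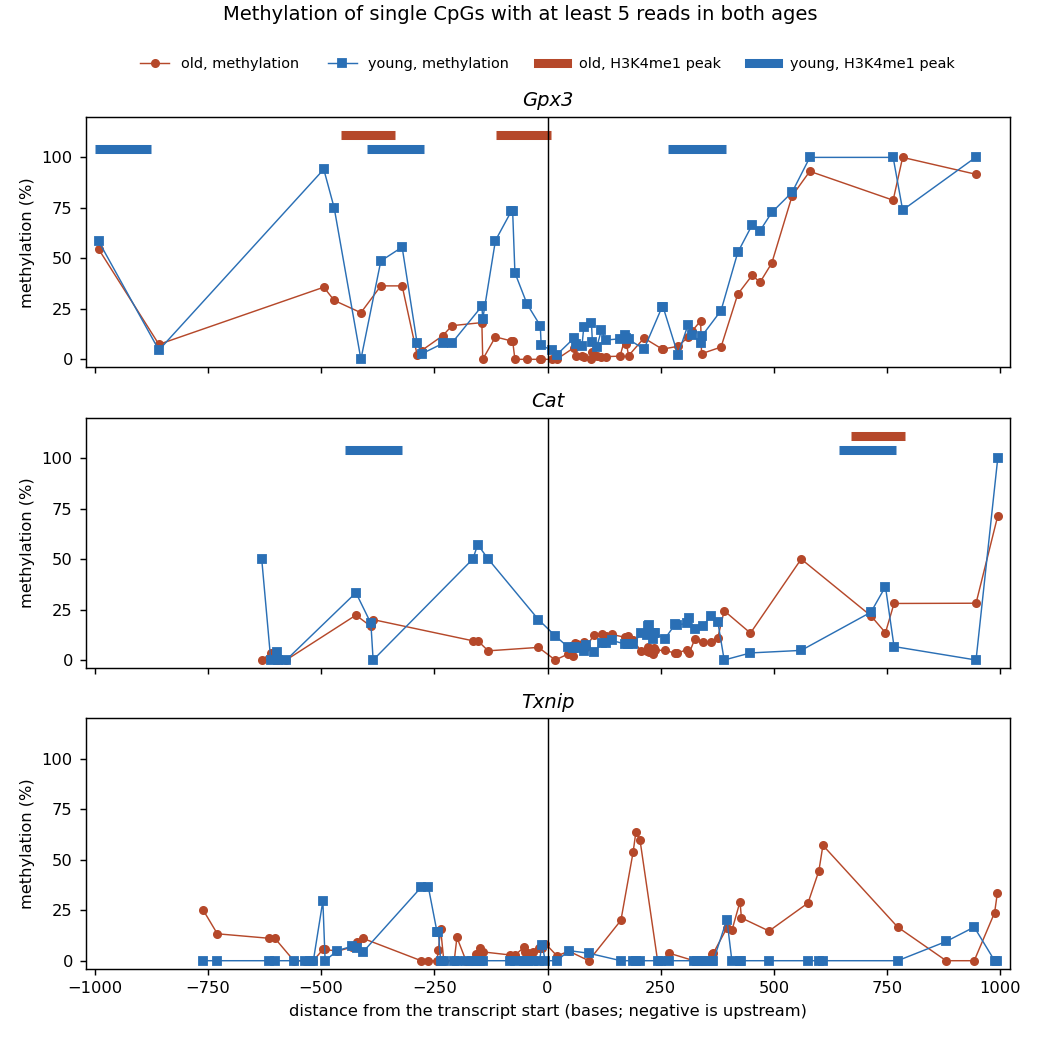
Methylation in percent (vertical axis) of single CpGs by distance from the start in bases (horizontal axis) for Gpx3, Cat and Txnip, old in red circles and young in blue squares, with H3K4me1 peaks as bars, old above young. At Gpx3 an H3K4me1 peak found in old cells alone lies over the CpGs just upstream of the start, where the young library is methylated and the old one is nearly not.

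The carbohydrate response element was searched on both strands as 2 copies of CACGNG separated by 5 bases, and 16 of 32851 RefSeq promoters of 300 bases hold it (0.0487%). The Txnip match begins 85 bases upstream. A forkhead motif, GTAAACA, lies 121 bases upstream of Txnip and occurs in 3.65% of promoters. The core of the antioxidant response element, TGACNNNGC, occurs in 12.4% and matched in Sod1 alone among the 9, on the minus strand 56 bases upstream. None of these motifs was found in the windows of Gpx3 or Cat.

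Within 50 kb of the 9 starts, counted by peak centres, lay 30 H3K4me1 peaks in old and 50 in young cells. Of these, 11 in each list overlapped a peak of the other age, 36.7% of the old and 22.0% of the young peaks. The overlap over all peaks is not given here, so these shares are not read as particular to the 9 genes. The old list has 36207 peaks and the young 77291, so counts are not comparable between ages. Methylation over these peaks could be tested for 12 old and 23 young ones. In the old list 2 of 12 were lower in old cells, where 16.6% of all such peaks were and 10.2% were higher. In the young list 3 of 23 were lower (17.1% of all) and 1 was higher (9.65% of all). In either direction 26.7% of all peaks were called in each list. Of 18 H3K27ac regions tested, 3 were lower in old cells and none higher (14.3% and 3.45% of all). The shares of methylation calls near these genes are thus close to those of the genome.

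At Gpx3 the peak nearest the start, chr11:54716242-54716362 in mm9, was called in old cells only and covers the start itself. Its score was equal to or above that of 58.5% of the old peaks. Just 0.799% of 22534 starts lay in an old H3K4me1 peak and 1.87% in a young one, whose narrow peaks flank starts. Over the 6 CpGs of this peak, 2 of 112 calls were methylated in old and 41 of 125 in young (1.79% in old and 32.8% in young, adjusted p = 1.3e-09). These are largely the CpGs of the middle group above, so the values are not a second observation. A stronger old peak centred 397 bases upstream overlapped a young peak, over which methylation was 19.9% in old and 30.4% in young (adjusted p = 0.076). Another young peak, centred 330 bases inside the gene, overlapped no old one.

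The whole of Gpx3 lay in a young H3K27me3 region of 32000 bases, chr11:54696001-54728000 in mm9, wider than 92.2% of the young regions or equal to them. No old H3K27me3 region came within 164112 bases of the gene. Such a pattern, a start inside a young and no old region, was found for 910 genes, of which 444 were tested for RNA and 6.53% fell and 6.98% rose. Gpx3 RNA was thus lower in the age without a called region. The nearest H3K27ac regions of young cells were 41880 and 36266 bases upstream, and methylation there was 6.44% in old and 9.37% in young, and 1.46% in old and 1.61% in young.

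**Figure D5:**
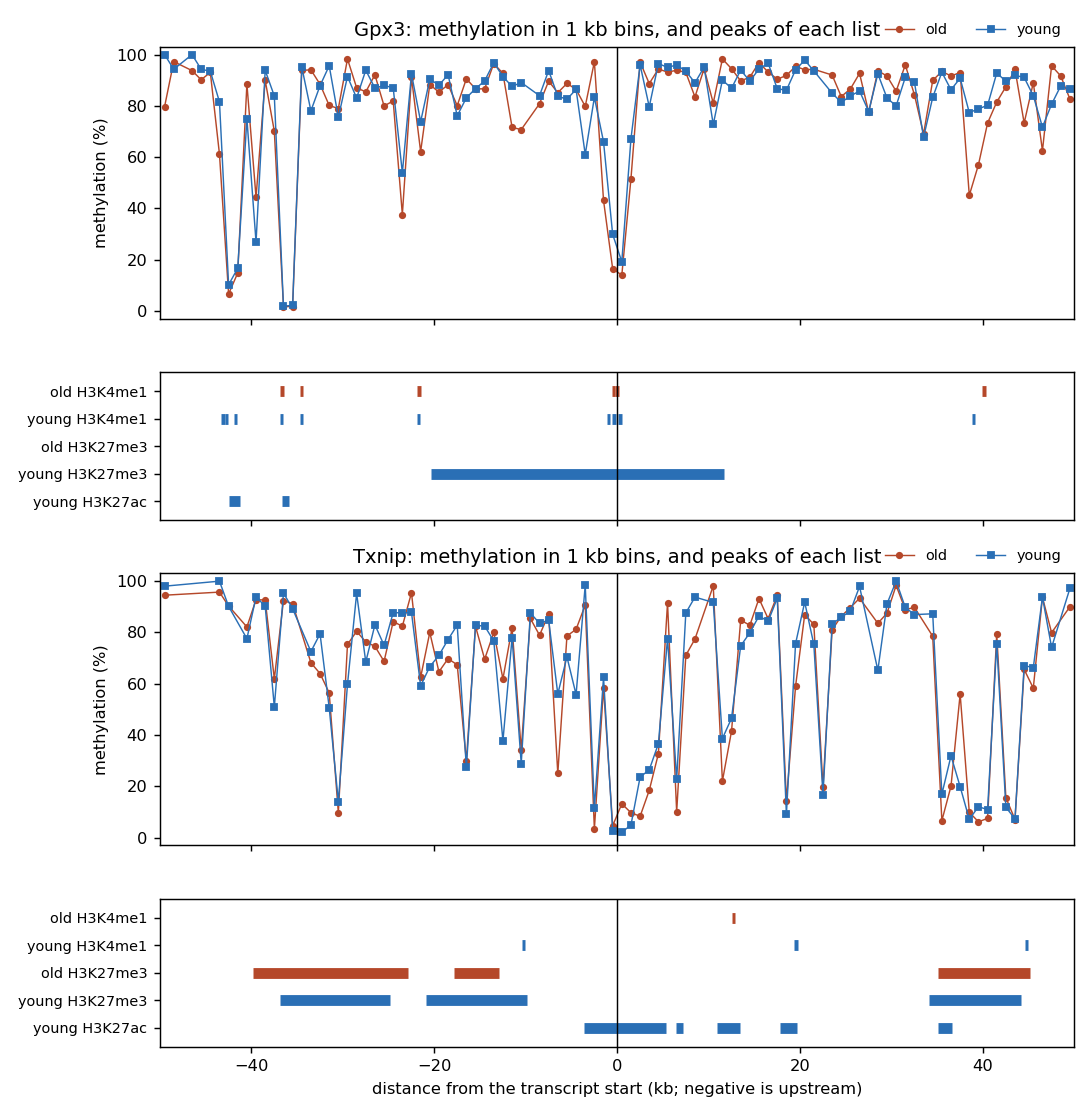
Methylation in percent in bins of 1 kb (line panels, old in red and young in blue) and peaks whose centres lie within 50 kb of the start (bar panels, one row per list) for Gpx3 and Txnip, by distance from the start in kb. The young H3K27me3 region spans the start of Gpx3 with no old region in the window, and a young H3K27ac region spans the start of Txnip.

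Txnip lay inside a young H3K27ac region of its own, over which methylation was 14.1% in old and 13.98% in young cells. Further downstream it had the 3 called H3K27ac regions of the 9 genes, all lower in old. The region 6762 bases downstream had 5.15% in old and 19.2% in young (adjusted p = 1.9e-05), and the one 35860 bases downstream 5.03% in old and 15.9% in young (adjusted p = 4.3e-16). The region 12171 bases downstream had 34.6% in old and 45.4% in young (adjusted p = 1.4e-06), and was not called with a minimum of 10 reads. H3K27me3 regions of both ages flanked Txnip without reaching its start.

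Cat and Prdx4 had no H3K27ac region within 50 kb. The start of Cat lay in an old H3K27me3 region, chr2:103324001-103334000 in mm9, and the young region over the same stretch began at 103326001, upstream of the start. Over all genes 39.3% of starts lay in an old H3K27me3 region and 25.4% in a young one. A start inside an old and no young region was found for 4033 genes. Counted by centres within 50 kb, Cat had 1 old and 5 young regions. A further old region, chr2:103242001-103295000, reached into the far end of the gene, but its centre lay outside that distance. It spans the young regions chr2:103273001-103281000 and chr2:103283001-103295000, which are in the count. A young region inside the gene, chr2:103301001-103314000, overlapped no old one. The start of Prdx4 lay in an old region, chrX:151769001-151800000, with no young region within 45004 bases of the gene. H3K27me3 regions on the X chromosome covered 59.5 Mb in old and 17.1 Mb in young cells, a ratio of 3.47, against 1.36 on autosomes, and 73.3% of X-linked starts lay in an old region and 20.4% in a young one. The region at Prdx4 was thus seen along with a wider gain over the chromosome, and the sex make-up of these pools was not tested.

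H3K27ac of young cells covered the starts of Sod2, Gpx1, Gpx4, Txnip and Txn1, and 28.1% of all starts. At Sod1 a young region, chr16:90221024-90222294 in mm9, began just inside the gene, whose start is at 90220987. Its score was equal to or above that of 97.1% of the young regions. At Gpx4, 2 young H3K4me1 peaks 14785 and 14199 bases upstream were lower in old, with 36.05% in old and 78.5% in young (adjusted p = 2.0e-08) and 13.4% in old and 27.9% in young. A peak 33.7 kb downstream of Txn1, called in both ages, had 44.8% in old and 71.4% in young (adjusted p = 0.0064 in the old list), a difference of -26.7 points over 3 CpGs that was -14.6 points with equal weight per CpG. For Sod1 a peak 18254 bases upstream was higher in old, with 18.0% in old and 7.73% in young (adjusted p = 0.0080). The old peak that overlaps it, with 5 CpGs in place of 6, had 16.6% in old and 11.9% in young and was not called (adjusted p = 0.41). Near Sod2 and Gpx1 no peak or region was called. The peaks nearest their starts were a young H3K4me1 peak 289 bases upstream of Sod2, with 8.24% in old and 1.796% in young, and the H3K27ac region over the start of Gpx1, with 5.69% in old and 6.65% in young.

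Over whole windows of 50 kb either side of the start, the direction depended on the weighting. With summed calls, as in the values above, 8 of the 9 were higher in old, from -0.78 points for Cat to 7.12 points for Sod1, where the median of 22406 genes was 2.57, with 5% below -2.01 and 5% above 7.77. None of the 9 lay outside that range. With each CpG weighted equally, 7 of the 9 were lower in old, from -3.72 points for Prdx4 to 1.14 points for Txn1, where the median of all genes was -0.43, with 5% below -2.51 and 5% above 1.72. By this weighting alone Prdx4 lay outside the range, and its difference was 2.73 points with summed calls. Its X chromosome had a median coverage of 7 reads per CpG in old and 5 in young, against 18 in old and 15 in young on autosomes. Gpx3 stood at 4.18 points with summed calls (58.6% in old and 54.4% in young) and at -0.86 with equal weight, within the range both times.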

How the data were processed

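RNA was deposited as raw read counts for each of 28644 RefSeq transcripts, not normalized by the authors. Bowtie 0.12.7, CASAVA 1.8.2, STAR, HOMER and edgeR and the build mm9 are named without a role in the submitters' processing notes, and the sources used here name neither the counter nor its strand setting. The transcript with the highest total stood for each of 22869 genes. Old (n = 3) and young (n = 2) libraries were compared with edgeR 4.0.16 (TMM factors, filterByExpr, quasi-likelihood test, two-sided, Benjamini-Hochberg over 15544 genes) in R 4.3.3. Alternatives were RLE factors, DESeq2 1.42.0, no filter, the mean over transcripts and leaving out each library. The young columns carry no replicate number and are named here by depth. No column of another sample was left unused in the count table. A second deposited table, named for FPKM, was used as a signal only to order genes within a column and for positions, and its columns for the third old and the shallower young library were 100% identical and not used.

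HOMER called the peaks of H3K4me1 and H3K27ac, per the file headers, against 1 input, at a false discovery rate (FDR) of 0.01, with at least 2-fold enrichment and a p-value of 0.0001 over input. The deposited HOMER score and fold ranked or described peaks within a list only. The deposited H3K27me3 lists have no header, so their score served as a rank, and their p-value column was not used. It is unknown here if the old H3K27me3 list pools the 2 replicas of the design text. Input libraries had no files here and were not analysed here.

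The deposited CpG tables give a methylated fraction and a read coverage per CpG. Methylated calls were recovered as their product, within 1.9e-08 of a whole number. The old table holds 19569012 CpGs with a median coverage of 18 reads and the young one 18795223 with 16, and 15451578 had at least 5 reads in both. Promoters needed 5 such CpGs and peaks 3, and 4 H3K27ac regions with over 1000000 calls were left out. Two-sided Fisher's exact tests used summed calls and were adjusted over each list, and intervals cover counting error only. The RNA and methylation tests were tested on simulated data.

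The 9 genes, the lists and the tests were chosen with earlier results of these data known. Named were all 9 genes, up to 4 called genes of each list by adjusted p, for each of the 9 the 2 genes nearest in centred log2 CPM among those with at least 20 CPM on average, and up to 2 called peaks or the nearest peak of each gene. The third called region of Txnip was named after its values were seen. Prdx6, Nfe2l2, Mlxipl and Arrdc4, which were not called by edgeR, were named outside this rule.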

Additional observations from a re-analysis of the deposited data

How the results depend on the processing

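Of the 9 genes, 1 passed the RNA test, where 11.1% of all genes did. Without a filter on low counts 2 did (Gpx3 and Gpx1), where 11.9% of all genes did. With DESeq2 3 did (Gpx3, Cat and Sod2), where 22.9% of all genes did. Without any 1 of the old libraries only Gpx3 did, where 2.22 to 2.97% of all genes did. Gpx3 kept its direction and its call under all 9 alternatives, with log2 fold changes between -2.91 and -2.41 and adjusted p-values (edgeR or DESeq2) up to 0.031. Of the 105 further redox genes 13 were called, 21 without the filter, 30 with DESeq2 and 2 to 31 with a library left out. Of the 13, Duox2 and Xdh were called under every alternative that kept both young libraries. Gstk1 was lost without the first or the second old library, and the other 10 without any 1 old library. Gsta4 was also lost without the filter, and Sepsecs, Ero1lb, Pdia3 and Pdia4 with RLE factors. Ggt1 had too few counts to be tested without any 1 old library, and Ggt1 and Gsta4 had too few without the deeper young one. Where 1 young library remained, it was assumed to vary like the old ones. The sign turned for Sod1 with RLE factors (-0.064) and DESeq2 (-0.064), and for Gpx4 with RLE factors (-0.054), with DESeq2 (-0.051) and with a library left out (-0.077 to 0.20). No paired analysis was possible because the young columns carry no replicate number.

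With each CpG weighted equally 1 of the 9 promoters was called (Gpx3) in place of 0, and the Prdx4 difference turned to -3.75 points. The windows of 500 bases turned Gpx1 to -2.71 and Gpx4 to -0.33 points, and those of 2000 bases turned Sod2 to 0.029 points. Counts of called peaks held within 1.5 times. Within 20 kb, peak counts were 15 for old and 25 for young H3K4me1, 12 for H3K27ac, 6 for old and 5 for young H3K27me3, with 6 old H3K4me1 and 2 old H3K27me3 peaks shared. In the upper part by score they were 33 for young H3K4me1 and 6 for old H3K27me3, 3 of these shared. The cause of these changes was not tested, other than that a shorter distance or a stricter score leaves fewer peaks. Depth limits Gpx4, with about 2 CPM, and the young library over the upstream CpGs of Cat. With 1 library per age, no methylation or histone difference has a replicate.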
